A study of Rattus norvegicus with 15 samples.

Results

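The genes Slc15a1, Slc5a1, Slc2a2, Slc2a5 and Slc16a1, which encode carriers of peptides, sugars and short-chain acids, were followed in RNA-seq libraries of the rat colon. They are 5 of the 32883 genes listed in the count tables, and all 5 were found under their Ensembl IDs on the stated chromosomes. Slc15a1 was chosen by its higher level after antibiotics in these same libraries, and the other 4 were added for the nutrients they carry when results of these libraries were already known. The values of the 5 genes in treated against control rats are therefore a description. Where it is said how many of them were past a threshold in that contrast, the count stands beside the number or share of all genes and nothing is read from it.

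RNA came from the MS tissue layer of the colon, which joins mucosa and submucosa, so that each library mixes epithelium with vessels, connective tissue and immune cells. The labels call this tissue colon epithelial. The 15 libraries formed 5 groups of 3. WT-C and TG-C were control wild-type and transgenic rats of 3 M (months) of age. WT-Ab and TG-Ab were rats of the same genotypes and age that had drunk water with amoxicillin with clavulanic acid, vancomycin, neomycin, cefuroxime, streptomycin and ampicillin for 2 weeks, starting at 2.5 M. The fifth group was untreated WT rats at > 12 M, whose library titles give 14 M, and TG rats of that age are not analysed here. TG rats were homozygous for the BAC-hSNCA transgene, the whole human α-synuclein gene with its introns under its own promoter rather than one specific to a cell type, on the outbred Sprague Dawley background, and WT rats were littermates. The antibiotic water also held sucrose, a sugar made of glucose and fructose. The sources used here do not say whether control rats drank sucrose, and antibiotics and sucrose then cannot be told apart in the treated groups. Nor do they say that each library came from a separate rat. The p-values thus rest on how much the libraries vary, which may be technical.

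Total counts per library ranged from 15606835 to 28685094. On the first principal component of the 12 libraries at 3 M, with 60.8% of the variance, WT-Ab 1 (98.4), TG-C 1 (92.3) and TG-Ab 1 (66.8) stood apart from the others, which lay between -58.4 and 0.0307. Mitochondrial transcripts made up 7.62%, 6.05% and 9.35% of the counts of these 3 libraries. In the other libraries at 3 M the mitochondrial share ranged from 11.0% to 13.7%, so these 3 had the lowest shares at that age. Over all 15 libraries it ranged from 6.05% to 13.7%, with 6.31% to 7.83% at > 12 M. Markers of cell types were not analysed here, because no gene table at hand pairs the other IDs with symbols. In such a mixture, fewer cells of a type and less RNA per cell cannot be told apart.

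Nutrients cross the gut epithelium through carriers of the solute carrier families. PEPT1, the product of Slc15a1, takes up di- and tripeptides together with protons, and it also accepts some β-lactam antibiotics. It is abundant in the small intestine and scarce in the healthy colon. SGLT1 (Slc5a1) brings in glucose and galactose with sodium, GLUT5 (Slc2a5) brings in fructose, and GLUT2 (Slc2a2) lets glucose and fructose leave toward the blood. MCT1 (Slc16a1) moves lactate and butyrate, the acids that bacteria make from fibre and that colonocytes burn.

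Slc15a1 (ENSRNOG00000011598) lies on the minus strand of chromosome 15 from 106800081 to 106844426 in the Rnor6 annotation of the tables, with 23 exons of 3026 bases in all. Slc5a1 (ENSRNOG00000017775) lies on the minus strand of chromosome 14 from 82909981 to 82975263, with 15 exons of 2949 bases. Slc2a2 (ENSRNOG00000011875) is on the plus strand of chromosome 2 from 114413410 to 114445395 (2668 exon bases), and Slc2a5 (ENSRNOG00000017693) on the plus strand of chromosome 5 from 167141875 to 167174310 (2581 exon bases). Slc16a1 (ENSRNOG00000019996) is on the plus strand of chromosome 2 from 207108552 to 207128554, with 5 exons of 2487 bases. No other listed gene overlaps any of the 5 on either strand.

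The genes differed widely in level. Divided by exon length, the mean of the 6 control libraries at 3 M was 167.8 ± 44.0 CPM (counts scaled to a common library total) per kb for Slc16a1 and 15.96 ± 4.13 for Slc5a1 (SD, n = 6). It was 0.307 ± 0.0453 CPM per kb for Slc15a1, 0.239 ± 0.130 for Slc2a5 and 0.00694 ± 0.0108 for Slc2a2. Slc15a1 (0.235 to 0.346) and Slc2a5 (0.108 to 0.482) could not be ordered, since their libraries overlap on this scale. In the 6 treated libraries Slc15a1 reached 8.11 ± 5.12 CPM per kb, with a range of 2.44 to 16.6 that overlaps that of Slc5a1 (13.2 ± 3.32, from 9.54 to 16.3). Treated and control means of Slc16a1 (119.9 ± 29.04 CPM per kb when treated) stayed above those of the other 4 genes. If the libraries hold 3′ ends, as the paper says, CPM without division by length is the closer scale, and the exon lengths of 2487 to 3026 bases leave the order of the means the same.

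**Figure D1:**
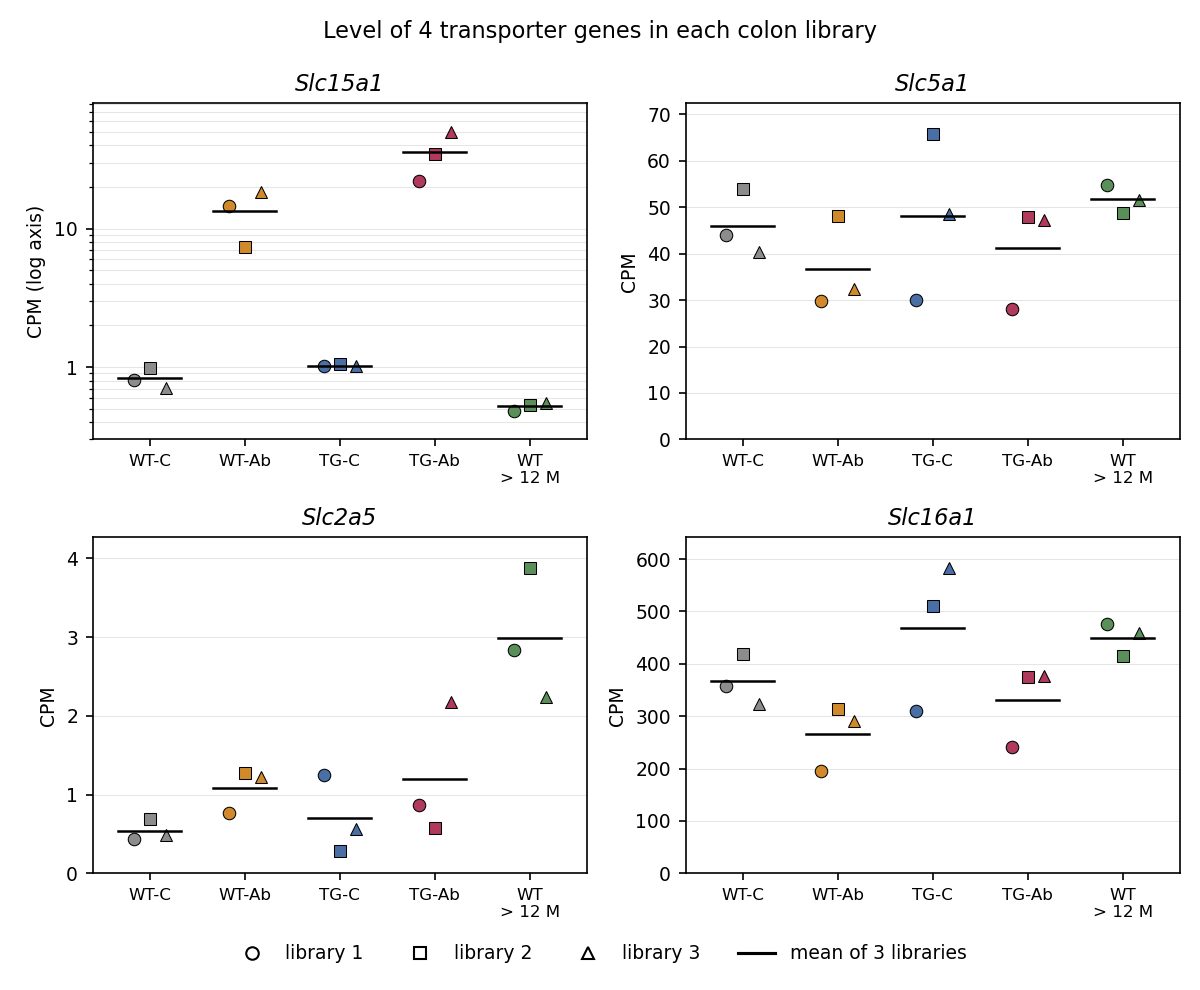
CPM of Slc15a1 (log axis), Slc5a1, Slc2a5 and Slc16a1 (linear axes from 0) in each of the 15 libraries, by group. Each point is 1 library, its shape the library number, and each line the mean of 3. Slc15a1 lies at or below 1.05 CPM in all control libraries and at or above 7.39 CPM in all treated ones, and library 1 is the lowest of WT-Ab, TG-C and TG-Ab for Slc5a1 and Slc16a1.

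Slc15a1, the peptide carrier, was barely counted in the control libraries and clearly counted in every treated library. WT-C libraries had 13, 17 and 13 counts (0.810, 0.981 and 0.710 CPM) and TG-C libraries 18, 30 and 18 counts (1.02, 1.05 and 1.02 CPM). WT-Ab libraries had 228, 128 and 286 counts (14.5, 7.39 and 18.3 CPM), and TG-Ab libraries 385, 665 and 880 counts (22.1, 34.6 and 50.3 CPM). All 6 treated libraries thus lay above all 6 control libraries, as they did for 3.03% of the 12457 genes tested over both genotypes. The mean went from 0.930 ± 0.137 to 24.5 ± 15.5 CPM (SD, n = 6 each), a ratio of 26.4. Within genotypes, the ratio of means was 16.1 in WT rats (0.834 ± 0.137 to 13.4 ± 5.55 CPM) and 34.7 in TG rats (1.03 ± 0.0166 to 35.7 ± 14.1 CPM; n = 3 each). Treated libraries lay above control libraries for 23.1% of the 12193 genes tested in WT rats and for 10.6% of the 12283 genes tested in TG rats.

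The fitted log2 fold change of Slc15a1 was 4.45 (standard error 0.352) over both genotypes, 3.85 (standard error 0.421) in WT and 4.99 (standard error 0.398) in TG rats. In order of fold change it stood at place 3 from the highest of 12457 genes over both genotypes, at place 3 of 12283 in TG and at place 112 of 12193 in WT rats. These places follow from how the gene was chosen. The filter asked for at least 4 CPM in at least 1 library, which Slc15a1 met through treated libraries alone. Of the 3 transporters that met it (Slc15a1, Slc5a1 and Slc16a1), 1, Slc15a1, was past an adjusted p of 0.05 over both genotypes in edgeR's quasi-likelihood test, as were 2.79% of all genes in either direction and 1.06% as higher. In TG rats 0 of 3 were past it (0.00814% of all genes), and 876 genes had an unadjusted p under 0.05. In WT rats 0 of 3 were past it as well (0% of all genes), with 1987 genes at an unadjusted p under 0.05.

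The replicate numbers paired TG-C with TG-Ab libraries by the likeness of their deviations. With this pairing as a replicate block, 20 of all genes, against 1 without it, were past the threshold in TG rats, Slc15a1 among them, at a log2 fold change of 4.91. The pairs were read from these same expression values, so the larger count is not independent of how they were found. Without the 3 libraries that stood apart, the log2 fold change over both genotypes was 4.53. Since Slc15a1 was selected on this contrast, none of these counts is support for it.

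The glucose carrier Slc5a1 showed no such separation. Slc5a1 had 43.9, 53.9 and 40.3 CPM in WT-C, 29.9, 48.1 and 32.3 in WT-Ab, 30.1, 65.7 and 48.5 in TG-C, and 28.1, 48.0 and 47.2 in TG-Ab (468 to 1886 counts). Treated and control libraries overlap in both genotypes, and library 1, which stood apart in WT-Ab, TG-C and TG-Ab, had the lowest value of each of these groups. Its mean was 47.1 ± 12.2 CPM in the 6 control and 38.9 ± 9.79 CPM in the 6 treated libraries. The fitted log2 fold change was -0.41 (standard error 0.231). Without the 3 libraries that stood apart the log2 fold change was -0.34.

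Slc2a5, the fructose carrier, stayed near the limit of detection. It had 7, 12 and 9 counts in WT-C, 12, 22 and 19 in WT-Ab, 22, 8 and 10 in TG-C, and 15, 11 and 38 in TG-Ab. The mean was 0.618 ± 0.336 CPM in control and 1.14 ± 0.570 CPM in treated libraries, and the groups overlap over both genotypes and in TG rats. In WT rats the treated libraries (0.765 to 1.27 CPM) lay above the control ones (0.436 to 0.693 CPM), as they did for 18% of the 20128 genes with a count in WT rats. Its log2 fold change, in a fit without the filter on low counts, which the gene did not pass in any comparison, was 0.79 (standard error 0.424).

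Slc2a2, whose carrier lets sugars out toward the blood, was hardly counted at this depth. It had 0 to 2 counts in each of the 15 libraries, and the sum over 3 libraries was 1 in every group at 3 M and 2 in WT rats at > 12 M. Where the count was 0, it allows up to 3 counts, or 0.105 to 0.192 CPM by library over all 15. The largest level was 0.0733 CPM, from 2 counts, and no fold change is given. These limits cover counting error only.

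Slc16a1, the carrier of lactate and butyrate and by far the most counted of the 5 genes, had a lower mean in treated rats. It had 358.2, 418.9 and 323.5 CPM in WT-C and 194.7, 313.2 and 291.0 in WT-Ab. It had 310.6, 509.6 and 583.4 CPM in TG-C and 240.9, 374.2 and 375.8 in TG-Ab. All 3 WT-Ab libraries lay below all 3 WT-C libraries, as they did for 8.11% of the genes tested in WT rats, while the TG groups overlap because TG-C 1 is low. The mean went from 417.4 ± 109.3 to 298.3 ± 72.2 CPM (SD, n = 6 each), a ratio of 0.715, and the log2 fold change was -0.62 (standard error 0.219). It was -0.60 in WT and -0.65 in TG rats. Slc16a1 was not past the threshold over both genotypes with all libraries. It was past it without TG-C 1 (log2 fold change -0.75) and without the 3 libraries that stood apart (-0.52), where the number of all genes past it went from 347 to 1848 and 1342, so nothing particular to Slc16a1 is read from it. As for Slc5a1, library 1 was the lowest of WT-Ab, TG-C and TG-Ab, and what part the difference between libraries has in these values was not tested.

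**Figure D2:**
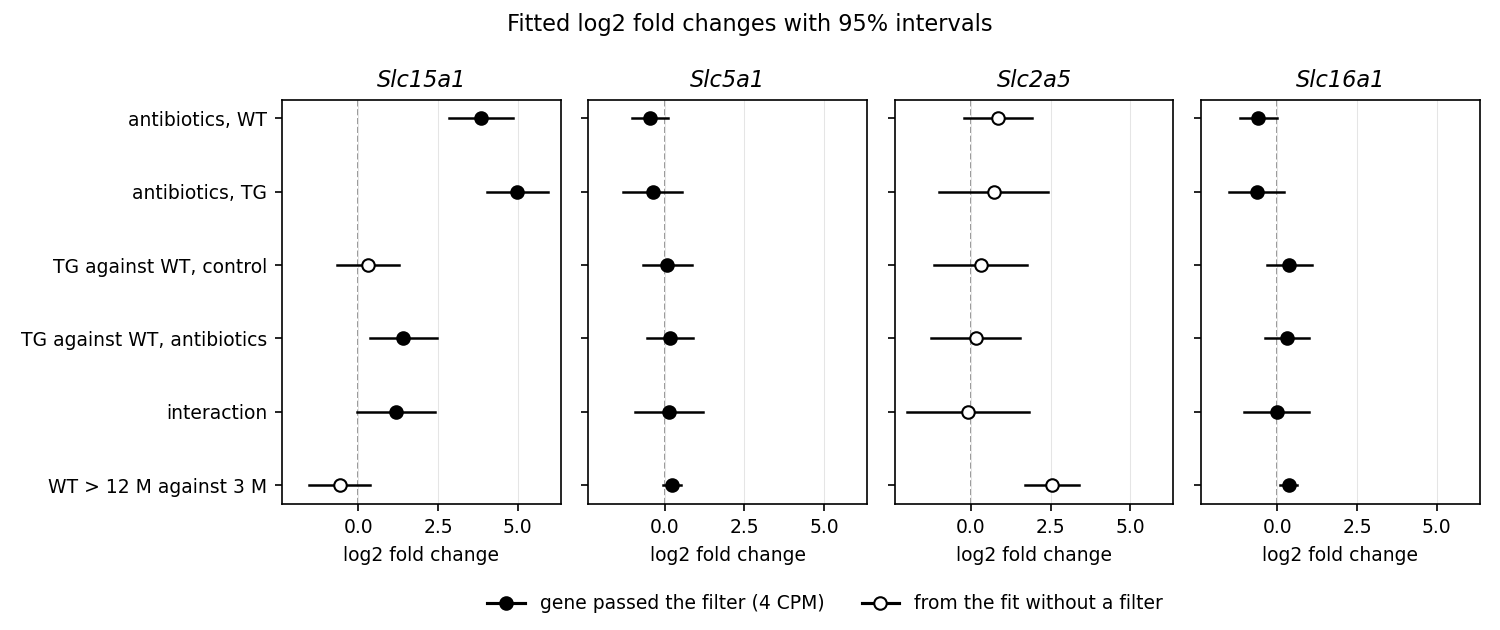
Fitted log2 fold changes of Slc15a1, Slc5a1, Slc2a5 and Slc16a1 with 95% intervals in 6 comparisons, from edgeR. Filled points passed the filter of 4 CPM in at least 1 library, open points come from the fit without it, and the interaction is the log2 fold change of antibiotics in TG minus that in WT rats. The antibiotic rows are descriptive, with Slc15a1 at 3.85 in WT and 4.99 in TG rats. The choice of Slc15a1 by its treated level also bears on its interaction row and on its TG against WT row under antibiotics.

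The composition of the 5 transporters' counts shifted toward the peptide carrier, which restates the choice of Slc15a1 by its treated level. Shares of a fixed total are tied, so a larger share of Slc15a1 leaves less for the others. Nothing further is read from the ranges of these shares. How many of all genes would separate on such shares was not computed. Slc16a1 made up 88.3 to 92.1% of their summed counts in the 6 control libraries and 79.0 to 84.9% in the 6 treated ones. Slc15a1 made up 0.160 to 0.297% in control and 1.997 to 10.6% in treated libraries, while Slc5a1 held 7.66 to 11.4% and 9.42 to 13.0%. Ratios within a library do not depend on its depth. Per 100 counts of Slc5a1, Slc15a1 had 1.81 ± 0.0427 counts in WT-C, 2.36 ± 0.925 in TG-C, 40.3 ± 22.0 in WT-Ab and 85.7 ± 18.2 in TG-Ab (SD, n = 3 each). The 3 TG-Ab libraries (78.7, 72.0 and 106.4) lay above the 3 WT-Ab libraries (48.7, 15.3 and 56.7) on this ratio. Slc5a1 had means of 41.1 CPM in TG-Ab and 36.8 CPM in WT-Ab. The ratio thus largely restates the levels of Slc15a1 and adds no separate support. The share of all genes with such a separation on this ratio was not computed. Slc5a1 per 100 counts of Slc16a1 stayed between 8.32 and 15.4 in all 15 libraries, with 11.4 ± 1.93 in control and 13.1 ± 1.82 in treated rats.

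**Figure D3:**
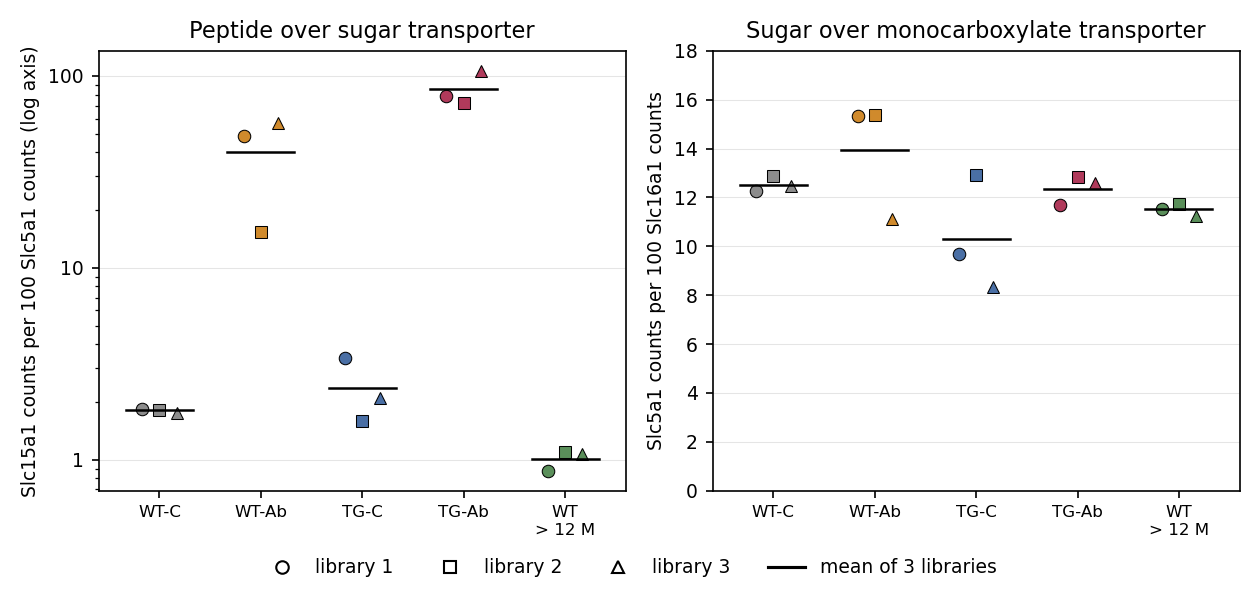
Slc15a1 counts per 100 Slc5a1 counts (left, log axis) and Slc5a1 counts per 100 Slc16a1 counts (right) in each library. Points are libraries and lines means of 3. The left ratio is at most 3.38 in control and at least 15.3 in treated libraries at 3 M, and the right one stays between 8.32 and 15.4.

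Whether the genotype alone changed these transporters was asked in control rats. The choice of Slc15a1 did not use this contrast, but the control libraries were part of the contrast that chose it. None of the 2 that passed the filter (Slc5a1 and Slc16a1) was past an adjusted p of 0.05, nor was any gene (0% of 12038), while 317 genes had an unadjusted p under 0.05 and DESeq2 called 13. Slc16a1 had 467.9 ± 141.1 CPM in TG-C and 366.9 ± 48.3 in WT-C (SD, n = 3 each). The fitted log2 fold change of 0.38 had a 95% interval of -0.34 to 1.09 (adjusted p = 0.91, edgeR's quasi-likelihood test). For Slc5a1 it was 0.08 with an interval of -0.68 to 0.85 (adjusted p = 0.973, same edgeR test), and its sign turned when WT-C 3 or TG-C 2 was left out (-0.01 and -0.22).

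Slc15a1 and Slc2a5 did not pass the filter in control rats. In the fit without it, Slc15a1 was 0.29 higher in TG-C on the log2 scale, with an interval of -0.68 to 1.26 (adjusted p = 0.907, edgeR's quasi-likelihood test). All 3 TG-C libraries lay above all 3 WT-C libraries, as for 2.69% of the 20133 genes with a count, but by as little as 1.02 against 0.981 CPM at 13 to 30 counts a library. For Slc2a5 the log2 fold change was 0.30 (interval -1.16 to 1.76, adjusted p = 0.943 in the same edgeR test) and it was -0.33 without TG-C 1.

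Under antibiotics Slc15a1 was higher in TG than in WT rats in every library, from 22.1 to 50.3 CPM in TG-Ab against 7.39 to 18.3 CPM in WT-Ab. Such separation held for 2.59% of the 12274 genes tested. The ratio of means was 2.66 and the log2 fold change 1.41 (standard error 0.443, 95% interval 0.35 to 2.48), place 29 from the highest of all genes. The difference did not pass the test across genes (unadjusted p = 0.0167, adjusted p = 0.9998, edgeR's quasi-likelihood test), and it lay between 1.05 and 1.75 when any 1 library was left out. Because Slc15a1 was chosen by its level in these treated libraries, its p-values here are not independent of that choice. Nothing is read from them. None of the 3 transporters tested was past an adjusted p of 0.05, against 0.00815% of all genes. Slc5a1 had a log2 fold change of 0.16 (interval -0.56 to 0.88) and Slc16a1 of 0.30 (interval -0.38 to 0.99). For Slc2a5, from the fit without the filter, it was 0.15 (interval -1.25 to 1.54).

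Whether antibiotics changed a transporter by a different amount in TG than in WT rats was tested with an interaction term in the fit of all 12 libraries at 3 M. This term is the antibiotic change in TG minus that in WT rats. Slc15a1 was chosen by its antibiotic change, so its interaction values are not independent of that choice and are a description. For Slc15a1 the log2 fold change in TG rats exceeded that in WT rats by 1.17 (standard error 0.554, 95% interval -0.05 to 2.40). Its adjusted p was 0.998 (edgeR's quasi-likelihood test), and nothing is read from it. The value was 0.80 without TG-Ab 3 and 1.53 without WT-Ab 3. Slc5a1 (0.13, interval -0.94 to 1.201) and Slc16a1 (-0.02, interval -1.03 to 0.99) did not pass this test. Their signs turned when single libraries were left out. None of the 3 was called, as was the case for all genes (0% of 12457), where 184 genes had an unadjusted p under 0.05 and DESeq2 called 3.

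The highest r within a treatment belonged to Slc5a1 and Slc16a1, without passing the adjustment for the pairs tested. In the 6 treated libraries their log2 CPM correlated with Pearson's r = 0.860 (exact permutation p = 0.0278, adjusted p = 0.333 over 20 pairs) and Spearman's rho = 0.714 (exact permutation p = 0.136, adjusted p = 0.681). In the 6 control libraries r was 0.753 (exact permutation p = 0.0806, adjusted p = 0.4) and rho 0.829 (exact permutation p = 0.0583, adjusted p = 0.444). Without the 2 libraries farthest from the median of Slc5a1, r was 0.733 and 0.618. Neither passed the adjustment over the 20 pairs of transporters within the 2 treatments, and 0 of all 20 did. Negative r of larger size than 0.753 were found in control libraries. They were Slc5a1 with Slc2a2 (-0.799, exact permutation p = 0.0333, adjusted p = 0.333), Slc2a2 with Slc16a1 (-0.756) and Slc5a1 with Slc2a5 (-0.789). The last was 0.861 without the 2 libraries farthest from the median of Slc5a1. Slc2a2 and Slc2a5 had few counts there. The lowest Slc5a1 values belong to libraries that stood apart, WT-Ab 1 and TG-Ab 1 among the treated and TG-C 1 among the control libraries, and fewer than 6 libraries of each treatment remain without them, so no test was made on these. Slc15a1 had r of 0.179 with Slc5a1 and 0.475 with Slc16a1 in treated rats (exact permutation p = 0.757 and 0.347, adjusted p = 0.775 and 0.772), with rho of -0.0857 and 0.6 (exact permutation p = 0.919 and 0.242, adjusted p = 1 and 0.967).

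**Figure D4:**
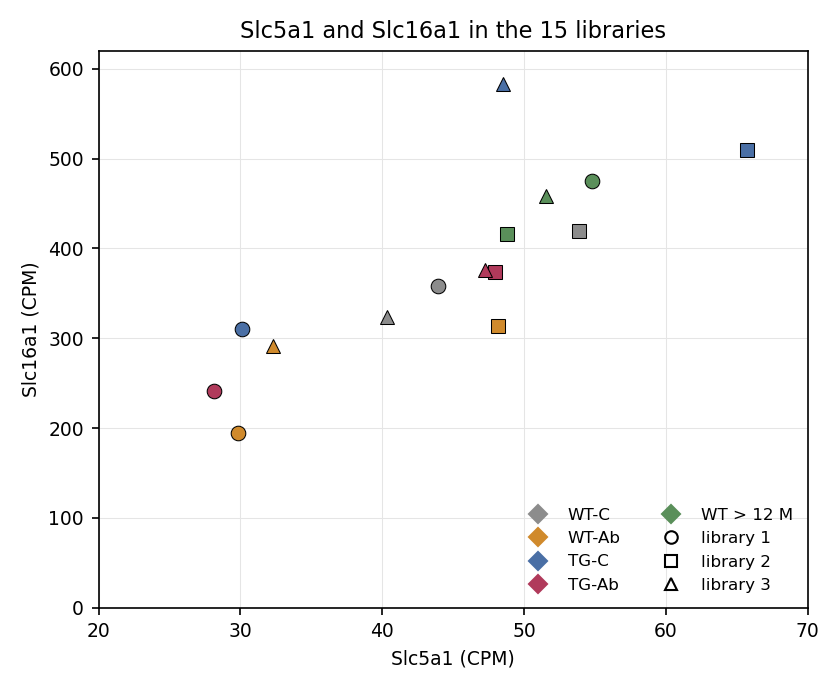
CPM of Slc5a1 (horizontal) against CPM of Slc16a1 (vertical) in the 15 libraries. Each point is 1 library, its colour the group and its shape the library number. WT-Ab 1, TG-C 1 and TG-Ab 1 lie at the lower left with 28.1 to 30.1 CPM of Slc5a1.

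The starts of 3 genes are shown, Slc5a1 and Slc16a1 because their r was the highest and Slc15a1 because its antibiotic fold change was the largest of the 5. The windows hold 250 bases before to 50 bases after an annotated start, from RefSeq on the GRCr8 build, whose coordinates differ from those of Rnor6 above. Windows were matched by symbol for 5 of 5 genes. Capitals mark letters of the motifs searched on both strands, GGGCGG (the GC box), CACGTG (the E-box), TATAAA (the TATA box), TTTATG (letters of Cdx sites), GTTAAT (part of the HNF1 site) and AGGTCA (the core of nuclear receptor sites). The Slc5a1 window is chr14:81843035-81843334 (minus strand), at the 5′ end of the gene. The Slc16a1 window is chr2:194812410-194812709 (plus strand), 7104 bases from the 5′ end of the annotated gene. The Slc15a1 window is chr15:104949295-104949594 (minus strand), 41972 bases from the 5′ end of the gene, so it belongs to the start of a shorter annotated transcript and is not the promoter at the gene's 5′ end.
Slc5a1: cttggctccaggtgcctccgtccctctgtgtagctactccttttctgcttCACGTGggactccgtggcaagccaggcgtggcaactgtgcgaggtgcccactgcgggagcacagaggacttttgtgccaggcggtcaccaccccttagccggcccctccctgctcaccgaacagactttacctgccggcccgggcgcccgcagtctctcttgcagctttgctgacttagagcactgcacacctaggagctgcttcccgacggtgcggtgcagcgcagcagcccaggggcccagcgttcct
Slc16a1: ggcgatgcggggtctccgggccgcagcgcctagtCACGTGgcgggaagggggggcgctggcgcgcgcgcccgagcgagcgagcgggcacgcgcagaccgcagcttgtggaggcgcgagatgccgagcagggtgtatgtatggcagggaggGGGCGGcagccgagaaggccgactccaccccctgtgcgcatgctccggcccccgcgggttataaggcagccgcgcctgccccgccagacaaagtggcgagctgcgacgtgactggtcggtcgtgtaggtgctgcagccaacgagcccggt
Slc15a1: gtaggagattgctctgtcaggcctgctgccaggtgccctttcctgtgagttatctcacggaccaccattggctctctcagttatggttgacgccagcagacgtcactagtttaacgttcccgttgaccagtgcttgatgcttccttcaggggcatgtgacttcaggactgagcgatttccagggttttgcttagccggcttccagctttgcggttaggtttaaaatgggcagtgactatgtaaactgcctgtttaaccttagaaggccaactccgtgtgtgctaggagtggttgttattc
The windows of Slc5a1 and Slc16a1 both hold CACGTG, with its first base at -200 and -216 from the start, and 6.418% of the 33469 windows in the table hold it. Slc16a1 also holds GGGCGG at -100 (33.06% of windows), and its GC content of 72.67% is above that of 94.81% of windows. The GC content was 64.67% for Slc5a1 and 50.67% for Slc15a1, whose window holds none of the 6 motifs. The Slc2a2 window holds AGGTCA at -139 and -88 (16.18% of windows) and that of Slc2a5 none. These windows lie 2486 bases (Slc2a2) and 8767 bases (Slc2a5) from the 5′ end of the annotated gene, so neither is at that end. These matches describe letters in the windows and no binding was measured.

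Age was compared in WT rats, where the older libraries carry codes of another set in the labels and were counted as read pairs rather than single reads. Age, library set and counting cannot be told apart. Mitochondrial transcripts made up 7.27 ± 0.837% of the counts at > 12 M and 12.7 ± 1.07% at 3 M (exact permutation p = 0.1, the smallest that 3 libraries against 3 allow). Slc2a5 was higher at > 12 M, with 71, 87 and 61 counts (2.84, 3.88 and 2.23 CPM) against 7, 12 and 9 counts at 3 M. All 3 older libraries lay above all 3 younger ones, as for 17.2% of the 20183 genes with a count. Its log2 fold change was 2.54 (95% interval 1.70 to 3.38, adjusted p = 0.000659, edgeR's quasi-likelihood test without the filter, in which 21.4% of genes were called). When any 1 library was left out it stayed between 2.28 and 2.76, and the exact permutation p of its CPM was 0.1.

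Of the 2 transporters that passed the filter between the ages, 1 was called, Slc16a1, where 35.3% of the 11498 genes tested were called. It had 475.5, 415.7 and 458.0 CPM at > 12 M, a range that overlaps the 323.5 to 418.9 CPM at 3 M. Its log2 fold change was 0.35 (95% interval 0.09 to 0.61, adjusted p = 0.0446, edgeR's quasi-likelihood test). The call was lost when any 1 of the 3 older libraries, WT-C 1 or WT-C 3 was left out (adjusted p from 0.0547 to 0.147 in the same edgeR test) and with a filter of 4 CPM in every library (adjusted p = 0.0591). Slc5a1, with 54.8, 48.8 and 51.5 CPM at > 12 M, had a log2 fold change of 0.23 (interval -0.06 to 0.51, adjusted p = 0.183 in edgeR's test) and was past the threshold without WT-C 2 (adjusted p = 0.0457 in edgeR's test).

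Slc15a1 went the other way in mean, with 12, 12 and 15 counts (0.480, 0.535 and 0.5496 CPM) at > 12 M. All 3 older libraries lay below all 3 younger ones, as for 22.8% of the genes with a count. The log2 fold change of -0.58 (interval -1.53 to 0.37) did not pass the test (adjusted p = 0.392, edgeR's quasi-likelihood test without the filter). Slc15a1 was thus under 1.05 CPM in all 9 libraries of rats given no antibiotics, from WT rats at both ages and TG rats at 3 M. The control libraries at 3 M were part of the contrast that chose Slc15a1, so its values here are not independent of that choice.

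Genes whose level followed that of Slc15a1 most closely over the 12 libraries at 3 M were looked up by Pearson's r of log2 CPM, as a description, since treated and control libraries form separate clusters for Slc15a1. The highest r belonged to ENSRNOG00000013733 (0.981, on chromosome 9 from 113534326 to 113573307), which had 100.1 ± 3.17 CPM in control and 136.4 ± 10.9 CPM in treated rats. Next came ENSRNOG00000050110 (0.976, on chromosome 11 from 67465236 to 67470941), with 0.353 ± 0.179 and 8.08 ± 3.81 CPM. The lowest r belonged to ENSRNOG00000007300 (-0.963, on chromosome 7 from 119746118 to 119753290), which went from 23.4 ± 3.00 to 10.9 ± 2.61 CPM, and to ENSRNOG00000057147 (-0.940, on chromosome X from 15618991 to 15620841), which went from 5.98 ± 0.422 to 3.92 ± 0.699 CPM. Slc16a1 had r of -0.464 with Slc15a1 and Slc5a1 of -0.308. Other peptide, sugar and acid carriers were not analysed here.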

How the data were processed

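RNA-seq of the colon MS tissue layer was analysed in 15 libraries, 3 in each of 5 groups taken from the sample labels. The authors deposited raw counts per gene. Per the file headers these were made with featureCounts 2.0.0 over the exons of Rnor6, at strand setting 2, leaving out reads of mapping quality under 3, with 1 count for each read pair at > 12 M but for each single read at 3 M. STAR 2.5.4a, bcl2fastq 2.19.1 and Subread stand in the submitters' processing notes. The labels describe NEBNext poly(A) libraries and the paper QuantSeq libraries of 3′ ends, so whether counts grow with transcript length is unsure. The limit on mapping quality removes reads shared by near-identical genes.

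The 5 genes and all lists were chosen with earlier results of these data known. All 5 are named in every comparison, and other genes were named by the highest and lowest r with Slc15a1. Lists of other transporters and of cell type markers were not analysed, because 0 of 32883 IDs matched a symbol. The quasi-likelihood test of edgeR 4.0.16 was run on these counts in R 4.3.3 (TMM, glmQLFit with robust estimation, glmQLFTest, two-sided, Benjamini-Hochberg over the genes kept). A gene was kept where 1 or more of the libraries compared had 4 CPM or more. Only the groups compared entered a fit, and treatment over both genotypes and the interaction used all 12 libraries at 3 M. Genes that failed the filter were read from a fit without it. CPM used library totals of 15606835 to 28685094, and log2 CPM a prior count of 2. Exact permutation tests of CPM and of mitochondrial shares used scipy 1.17.1 in Python 3.11.15. Correlations and their exact permutation p-values were computed with numpy 2.4.6 over all orderings, with ranks from scipy. Alternatives were other filters, DESeq2 size factors, DESeq2 1.42.0, a joint fit of all 4 groups at 3 M, a replicate block, and fits without each library or without the 3 that stood apart.

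Between TG-C and TG-Ab, deviations from the group means had r = 0.797, 0.793 and 0.575 for libraries 1, 2 and 3, and between WT-Ab and TG-Ab 0.592, 0.228 and 0.554. WT-Ab 2 was more like a TG-Ab library of another number (r = 0.475) than like TG-Ab 2. These numbers were treated as pairs on this ground, which no label states and which does not hold for WT-Ab 2. The pairs come from the same counts as the fits, so p-values of fits with a replicate block are not independent of them. A replicate block over both genotypes joins all libraries of a number, although WT-C numbers were not paired with those of WT-Ab (-0.0541, 0.186 and -0.151) or of TG-C (-0.0513, 0.320 and -0.230). Every pair of libraries in a group differed by more than sampling noise (mean chi-square per gene at least 23.5).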

Additional observations from a re-analysis of the deposited data

How the results depend on the processing

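Slc15a1 kept its direction in each antibiotic comparison under every alternative that gave a value, with log2 fold changes of 4.22 to 4.63 over both genotypes, 4.63 to 5.27 in TG and 3.49 to 4.15 in WT rats when any 1 library was left out. It has no value over both genotypes with at least 4 CPM in every library, where 0 of the transporters were called.

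Counts moved more. Over both genotypes the 347 genes became 1247 with DESeq2, 820 with the replicate block, 1342 without the 3 libraries that stood apart and 89 to 1848 without 1 library (the most without TG-C 1), and the 1 transporter called became 2 (with Slc16a1) with the block, which WT-C libraries do not follow, without the 3 libraries and without TG-C 1 (1 to 2). In TG rats the 1 gene became 0 with 4 CPM in every library, 11 without a filter, 3 with DESeq2 size factors, 201 with DESeq2, 20 with the replicate block, 14 with all 4 groups, 0 without the 3 libraries and 0 without any 1 library. There 1 transporter, Slc15a1, was called without a filter, with size factors, DESeq2, the block and all 4 groups. In WT rats the 0 genes became 615 with DESeq2, 187 without the 3 libraries, 8 with all 4 groups and 0 to 187 without 1 library (the most without WT-Ab 1), and 1 transporter, Slc15a1, was called in these (0 to 1 without 1 library). Of the 3 libraries only WT-Ab 1 is in this comparison, so leaving out the 3 and leaving out WT-Ab 1 are the same fit. Between genotypes, DESeq2 gave 13 genes in control rats, 16 under antibiotics and 3 for the interaction. In control rats 1 gene was called without the 3 libraries (0 to 1 without 1 library), which is the same fit as without TG-C 1. Under antibiotics the 1 gene became 0 with 4 CPM in every library, the replicate block or all 4 groups (0 to 1 without 1 library), and the interaction gave 0 to 2 without 1 library. Between ages the 4061 genes became 2505 to 4004 without 1 library, and the 1 transporter became 0 with 4 CPM in every library, 2 without a filter (Slc2a5 with Slc16a1) and 0 to 2 without 1 library. The cause was not tested.

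Signs turned among differences that passed no test. In TG rats the antibiotic log2 fold change of Slc2a5 was -0.0749 without TG-Ab 3. In control rats TG against WT, Slc2a5 was -0.33 without the 3 libraries (the same fit as without TG-C 1) and -0.33 to 0.68 without 1 library, and Slc5a1 -0.22 to 0.36. Under antibiotics Slc2a5 was -0.0197 with the replicate block and -0.63 to 0.53 without 1 library. For the interaction, Slc16a1 was 0.0736 with the replicate block and -0.30 to 0.20 without 1 library, Slc5a1 -0.13 without the 3 libraries and -0.16 to 0.41 without 1 library, and Slc2a5 0.48 and -0.90 to 0.50. Besides the counts above, paired fits changed no call of a transporter. Slc2a2 is limited by depth, as 0 to 2 counts a library bear no fold change.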
